A study of Mus musculus with 10 samples.

Results

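Platelets and the megakaryocytes that shed them carry a small set of surface receptors and granule proteins that few other cells make. Of 10 such genes, 9 had a probe set that names them alone on the Affymetrix mouse genome array used here, out of 18128 genes measured in that way. These were Ppbp, Pf4, Itga2b, Gp1bb, Gp5, Gp6, Gp9, Treml1 and Clec1b, with 1 probe set each, so the choice of the probe set with the highest mean did not act on them. Gp1ba, the subunit of the von Willebrand factor receptor that holds the ligand, had no probe set named for it and is not analysed here.

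Synovium was taken from the left hind legs of 10 mice, all males of the strain DBA/1J, in which arthritis had been induced with collagen antibody (CAIA). All 10 mice received 1 mg of an antibody to type II collagen on day 8 and 25 µg of bacterial lipopolysaccharide on day 11, and were killed on day 12, labelled as 8 weeks old. The maslinic acid group (5 mice) was given maslinic acid, an olive triterpene, suspended in corn oil, by mouth, at a daily dose of 200 mg/kg. The vehicle group (5 mice) got the oil alone. The 5 mice of each group had been selected from larger groups, and the untreated mice of the design were not analysed here.

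In these cells, GPIb-alpha, GPIb-beta, GPIX and GPV form the receptor that catches von Willebrand factor at a damaged vessel wall. GPVI then binds collagen, CLEC-2 binds podoplanin, and both signal inside the platelet through the kinase Syk, after which integrin alpha-IIb beta-3 binds fibrinogen and granules release chemokines such as Pf4 and the products of Ppbp. In inflamed joints platelets are known as a source of chemokines and of microparticles. Megakaryocytes sit mainly in bone marrow, and their receptor genes are known targets of GATA and ETS factors.

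The deposited values have an unknown scale for differences. They look like log2 intensities in level, with a median of 6.74, yet 93.5% of probe sets ranged by less than 0.001 over the 10 arrays. Members are therefore given as z-scores, the deviation from the gene's own mean over the 10 arrays in units of its SD. The difference between groups is given as Hedges' g, maslinic acid minus vehicle in SDs within groups, with a 95% interval. In deposited units the range over arrays was 0.000498 for Gp6, the smallest among the members, and 86.4% of genes had a smaller one. Clec1b had the widest range, 0.0409. Vehicle replicates 3 and 5 stood apart over the whole array. Their median absolute z-score over 6743 genes was 1.19 and 1.35, against 0.41 to 0.71 in the maslinic acid mice and 0.48 to 0.55 in the other vehicle mice.

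Promoter sequence is shown for 4 members. The members went together between mice and parted most on 1 array, where Gp5 and Itga2b were low and Pf4 and Ppbp high. The 150 bases before the start in RefSeq's promoter table (GRCm38.p6) are given 5′ to 3′ on the gene's own strand. Capitals mark the GATA words AGATAA or AGATAG and TGATAA or TGATAG, and the ETS words AGGAAG or CGGAAG, searched on both strands.
Gp5 promoter, chr16:30310782-30310931, minus strand: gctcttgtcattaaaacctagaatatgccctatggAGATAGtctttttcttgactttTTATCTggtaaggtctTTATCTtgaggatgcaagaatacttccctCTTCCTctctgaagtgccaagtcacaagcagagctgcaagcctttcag
Itga2b promoter, chr11:102469884-102470033, minus strand: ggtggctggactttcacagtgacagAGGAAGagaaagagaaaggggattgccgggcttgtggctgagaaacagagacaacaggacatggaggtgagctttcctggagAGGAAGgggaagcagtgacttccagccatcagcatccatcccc
Pf4 promoter, chr5:90772285-90772434, plus strand: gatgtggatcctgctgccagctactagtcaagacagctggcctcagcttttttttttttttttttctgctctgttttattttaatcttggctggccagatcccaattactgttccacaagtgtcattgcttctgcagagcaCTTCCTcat
Ppbp promoter, chr5:90768368-90768517, plus strand: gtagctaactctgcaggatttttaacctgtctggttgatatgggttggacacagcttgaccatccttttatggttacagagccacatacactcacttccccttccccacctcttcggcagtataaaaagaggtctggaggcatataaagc
Gp5 held 3 GATA words, at 115, 93 and 77 bases before the start, and 1 ETS word. Itga2b held 2 ETS words, at 125 and 43 bases, and Pf4 held 1, at 9 bases. Ppbp held neither kind within 250 bases. Over 250 bases, GATA words were found in 5 of the 10 promoters (Gp1ba, Gp1bb, Gp5, Gp6 and Clec1b), against 26.5% of 32851 mouse promoters. ETS words were found in 6 of the 10 (Pf4, Itga2b, Gp1ba, Gp1bb, Gp5 and Gp9), against 39.2%. A word match is a description of the letters, not of a bound factor.

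All 9 measured members had a lower mean with maslinic acid, but none passed the test. With a score of neutrophil markers as a covariate, which correlated with the mean of the members at r = 0.85, 5 of 9 were lower and g of Itga2b (0.65), Gp1bb (0.04), Gp5 (0.87) and Treml1 (0.18) had the other sign. Across the array 49.9% of genes had a lower mean, and 0% of 39993 probe sets passed limma's test at an adjusted p under 0.05 (lowest adjusted p = 0.148). The median g of the 9 members was -1.22, against 0.00 over all genes. The members had g between -1.71 and -0.62, with adjusted p-values from 0.488 to 0.744 over all probe sets in limma. At an unadjusted p under 0.05 there were 4 of 9 lower and 0 higher, against 4.54% and 4.29% of all genes. In each of the 9 genes all 5 maslinic acid arrays lay below the vehicle median, which held for 11.7% of all genes. The groups overlapped in every member, while they did not overlap, with maslinic acid lower, in 0.734% of genes. Tied values can lower these last 2 shares, since 6743 of 18128 genes had 10 distinct values, as every member did. Without regard to direction, 9.04% of probe sets had an unadjusted p under 0.05. A g of -1 or lower was seen in 6 of 9 members and in 9.91% of all genes. The members share cells and arrays, so these counts are not counts of independent genes. In a tissue sample, fewer platelets or megakaryocytes and less of an RNA per cell cannot be told apart.

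The alpha-granule chemokine genes had lower means, by an amount that hung on the scaling: after quantile normalization g was -0.57 for Ppbp and -0.57 for Pf4. Ppbp, the precursor of platelet basic protein and of the neutrophil attractant that platelets make from it, had z-scores of -0.07, -0.65, -1.44, -0.50 and -0.70 in maslinic acid replicates 1 to 5, against 0.31, 0.75, 2.09, -0.49 and 0.70 in vehicle replicates 1 to 5. Every maslinic acid mouse was below its mean, and vehicle replicate 3 was far above the rest while vehicle replicate 4 lay among the maslinic acid mice. The difference was g = -1.62 (95% interval -2.95 to -0.22, n = 5 per group, limma adjusted p = 0.488).

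Pf4, platelet factor 4, is the neighbour of Ppbp on chromosome 5. It had z-scores of -0.16, 0.23, -1.41, -0.82 and -1.04 in maslinic acid replicates 1 to 5, against 0.45, 0.65, 1.14, -0.70 and 1.67 in vehicle replicates 1 to 5. Here vehicle replicate 5 was the highest mouse, and vehicle replicate 4 again lay among the maslinic acid mice. The difference was g = -1.48 (-2.77 to -0.12, limma adjusted p = 0.508), and -2.33 without vehicle replicate 4.

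The receptors that signal through Syk had lower means as well. Gp6, the collagen receptor, had z-scores of -0.13, -0.10, -1.60, -0.84 and -0.77 in maslinic acid replicates 1 to 5, against 0.72, 0.76, 1.89, -0.42 and 0.49 in vehicle replicates 1 to 5. Its g was -1.71 (-3.06 to -0.29, limma adjusted p = 0.488), and -0.77 after quantile normalization. All 5 maslinic acid mice and vehicle replicate 4 were below the mean. Gp6 had the lowest level among the members, 7.11, where the median over all probe sets was 6.74. Clec1b, which encodes CLEC-2, had z-scores of -0.43, -0.22, -1.19, -0.60 and -0.70 in maslinic acid replicates 1 to 5, against 0.07, 0.35, 2.16, -0.59 and 1.16 in vehicle replicates 1 to 5. Its g was -1.44 (-2.72 to -0.09, limma adjusted p = 0.514), with the maslinic acid mice close together and the vehicle mice widely spread. In mice CLEC-2 is also found on some myeloid cells, so its signal need not be from platelets alone.

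The subunits of the von Willebrand factor receptor had lower means too, with intervals that reached past 0. Gp9, encoding GPIX, had z-scores of 0.10, -0.82, -1.33, 0.05 and -0.87 in maslinic acid replicates 1 to 5, against 0.80, 0.56, 2.15, -0.39 and -0.25 in vehicle replicates 1 to 5. Its g was -1.22 (-2.46 to 0.07, limma adjusted p = 0.559), and vehicle replicates 1, 2 and 3 were above every maslinic acid mouse. Gp1bb, encoding GPIb-beta, had z-scores of 0.36, -1.05, -1.37, 0.16 and -0.62 in maslinic acid replicates 1 to 5, against 1.36, 0.86, 1.46, -0.41 and -0.75 in vehicle replicates 1 to 5. The same 3 vehicle mice were highest, and g was -1.02 (-2.21 to 0.23, limma adjusted p = 0.604), and -1.77 after quantile normalization. Gp5, encoding GPV, which binds the other subunits loosely, had z-scores of 0.62, -1.45, -0.80, 0.25 and -0.33 in maslinic acid replicates 1 to 5, against 0.93, 0.76, 1.43, 0.07 and -1.49 in vehicle replicates 1 to 5. Vehicle replicate 5 was the lowest mouse of all for Gp5, and g was -0.62 (-1.76 to 0.56, limma adjusted p = 0.744). After quantile normalization it was -1.02, and without maslinic acid replicate 2 it was -0.38, as it was without vehicle replicate 3.

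The fibrinogen receptor subunit and the granule membrane receptor followed the same mice. Itga2b, integrin alpha-IIb, an early mark of the megakaryocyte line, had z-scores of 0.32, -0.92, -0.98, 0.51 and -0.71 in maslinic acid replicates 1 to 5, against 1.23, 1.04, 1.11, -0.02 and -1.58 in vehicle replicates 1 to 5. Vehicle replicate 5 was again the lowest mouse, and g was -0.66 (-1.80 to 0.52, limma adjusted p = 0.725), and -0.30 after quantile normalization. Treml1, a receptor of alpha-granule membranes that reaches the surface on activation, had z-scores of 0.29, -0.63, -1.33, 0.09 and -0.80 in maslinic acid replicates 1 to 5, against 1.25, 0.67, 1.68, -0.10 and -1.13 in vehicle replicates 1 to 5. Its g was -0.93 (-2.12 to 0.30, limma adjusted p = 0.628), with vehicle replicates 1, 2 and 3 above all others. It was -1.69 without vehicle replicate 5 and -0.39 after quantile normalization.

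**Figure D1:**
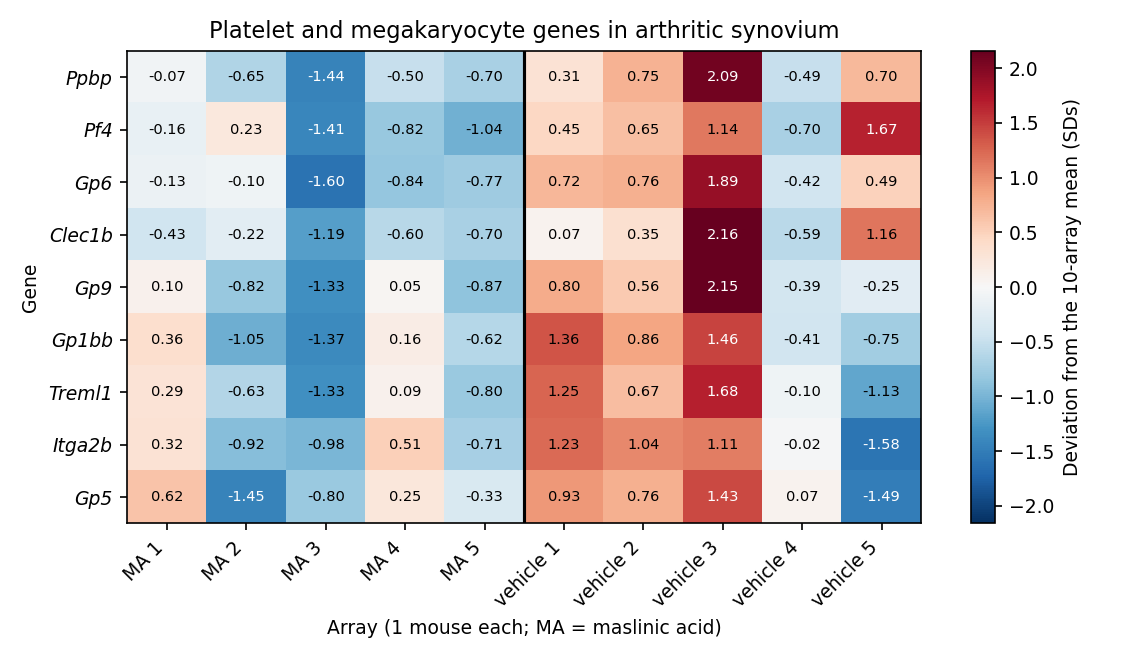
Each row is 1 of the 9 measured genes and each column 1 mouse, with maslinic acid (MA) mice left of the line and vehicle mice right of it; colour and number give the deviation from the gene's mean over 10 arrays in SDs. Vehicle replicate 3 is highest in 7 genes and maslinic acid replicate 3 lowest in 7, while vehicle replicate 5 is above the mean in the 4 upper rows and below it in the 5 lower rows.

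**Figure D2:**
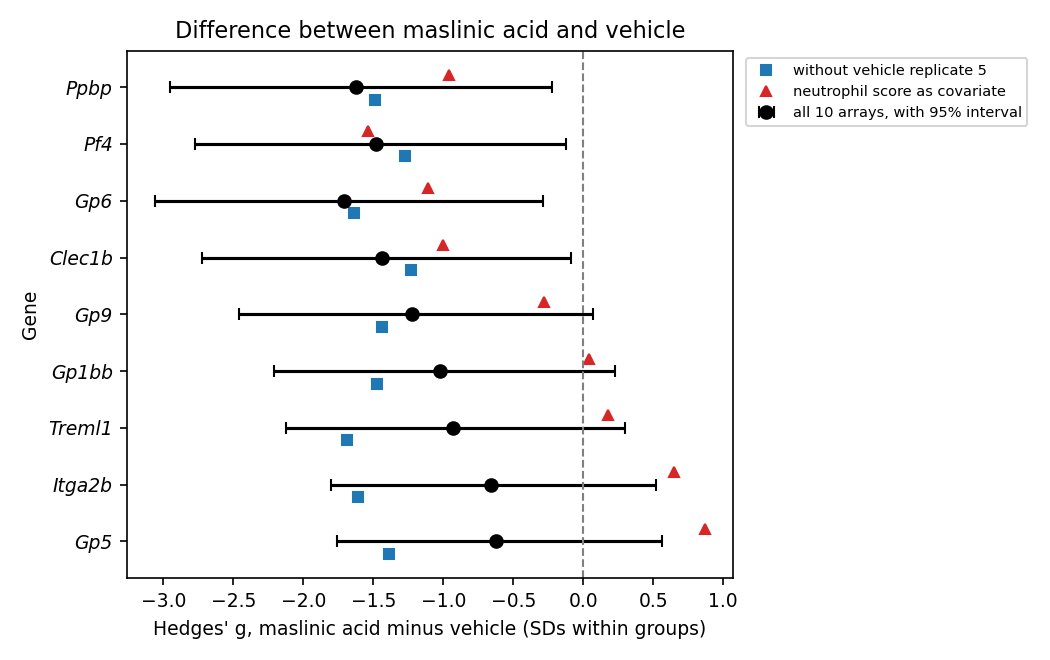
Points give Hedges' g, maslinic acid minus vehicle, in SDs within groups for each gene, and bars the 95% interval over all 10 arrays (5 per group). Squares leave out vehicle replicate 5 and all lie at -1.23 or below. Triangles use the neutrophil score as a covariate, in units of the SD left after that fit. Those of Itga2b, Gp5, Gp1bb and Treml1 lie above 0.

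Mice differed more within the vehicle group than within the maslinic acid group. The mean z-score over the 9 members was 0.10, -0.62, -1.27, -0.19 and -0.73 in maslinic acid replicates 1 to 5, and 0.79, 0.71, 1.68, -0.34 and -0.13 in vehicle replicates 1 to 5. It averaged -0.543 ± 0.528 in maslinic acid mice and 0.543 ± 0.808 in vehicle mice (SD, n = 5 each), and the groups overlapped. The vehicle SD was the larger one in 9 of 9 members and in 71.7% of all genes. Vehicle replicate 3 was the highest array in 7 of 9 members and in 14.9% of all genes. Maslinic acid replicate 3 was the lowest in 7 of 9 members and in 10.4% of all genes. In these 2 shares a tie went to the first array in order, maslinic acid replicates 1 to 5 and then vehicle. Only 6743 of 18128 genes had 10 distinct values, as all 9 members did. The shares over all genes are thus too low for a like comparison with the members.

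Levels of the members went together from mouse to mouse, in 2 sets that parted most on vehicle replicate 5. Over 36 pairs of members the median Pearson r was 0.79 (0.09 to 0.97, n = 10 arrays), and the median Spearman rho was 0.77. The median r was 0.40 after quantile normalization and 0.67 over deviations from group means. By permutation, 23 pairs had an adjusted p under 0.05 for Pearson's r and 21 for Spearman's rho, adjusted over the 36 pairs. The genes were chosen with their co-variation already known, so these counts are not independent evidence of it. No count over pairs of other genes is given here. With vehicle replicates 3 and 5 apart over the whole array, how unusual such counts are was not tested. By Pearson's r over the 10 arrays the closest pair was Gp1bb and Treml1 (r = 0.97, rho = 0.96, permutation p = 2e-05 and 4e-05, adjusted 0.00024 and 0.00048), with r = 0.94 without the 2 arrays farthest from the Gp1bb median. By rho the closest pair was Pf4 and Clec1b (rho = 0.99, r = 0.89). The chemokine neighbours Ppbp and Pf4 had r = 0.84 and rho = 0.89 (permutation p = 0.00194 and 0.00115, adjusted 0.00437 and 0.00296), with r = 0.83 without the 2 farthest arrays. The least alike pair was Pf4 and Gp5 (r = 0.09, rho = 0.25, permutation p = 0.792 and 0.493, adjusted 0.792 and 0.493), with r = 0.47 without the 2 farthest arrays, of which vehicle replicate 5 was 1. The weakest relation without the 2 farthest arrays was Treml1 with Clec1b. There r was 0.53 over all arrays and -0.13 without vehicle replicate 3 and maslinic acid replicate 3. For this pair r was 0.83 without vehicle replicate 5 and 0.81 without vehicle replicates 3 and 5, so it hung on which mice were left out.

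Within the set of Itga2b, Gp1bb, Gp5, Gp9 and Treml1, the 10 pairs had r between 0.79 and 0.97. Within the set of Ppbp, Pf4, Gp6 and Clec1b, the 6 pairs had r between 0.84 and 0.96. The 20 pairs between the sets had a median r of 0.54 (0.09 to 0.91), and of 0.82 (0.58 to 0.97) without vehicle replicate 5. In that mouse the first set had z-scores from -1.58 to -0.25, and the second from 0.49 to 1.67. The sets parted most in that mouse, but not in it alone. In maslinic acid replicate 1 the first set lay between 0.10 and 0.62 and the second between -0.43 and -0.07. In maslinic acid replicate 4 they lay between 0.05 and 0.51 and between -0.84 and -0.50. The first set was also the higher in vehicle replicate 1 (0.80 to 1.36 against 0.07 to 0.72) and vehicle replicate 4 (-0.41 to 0.07 against -0.70 to -0.42). In maslinic acid replicate 2 the first set was mostly the lower, as in vehicle replicate 5 (-1.45 to -0.63 against -0.65 to 0.23). Without vehicle replicate 5 the median r was 0.94 within the first set and 0.95 within the second. The sets were drawn after the values were seen, and no test was made of them. Without vehicle replicate 5, g of Itga2b was -1.61 and that of Gp5 -1.39, and 7 of 9 members had an unadjusted p under 0.05, against 4.72% of all genes. Without vehicle replicates 3 and 5 together, g lay between -1.43 and -0.98 in all 9 members, and 0 reached an unadjusted p under 0.05, against 4.61% of genes; none passed after adjustment in either setting.

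**Figure D3:**
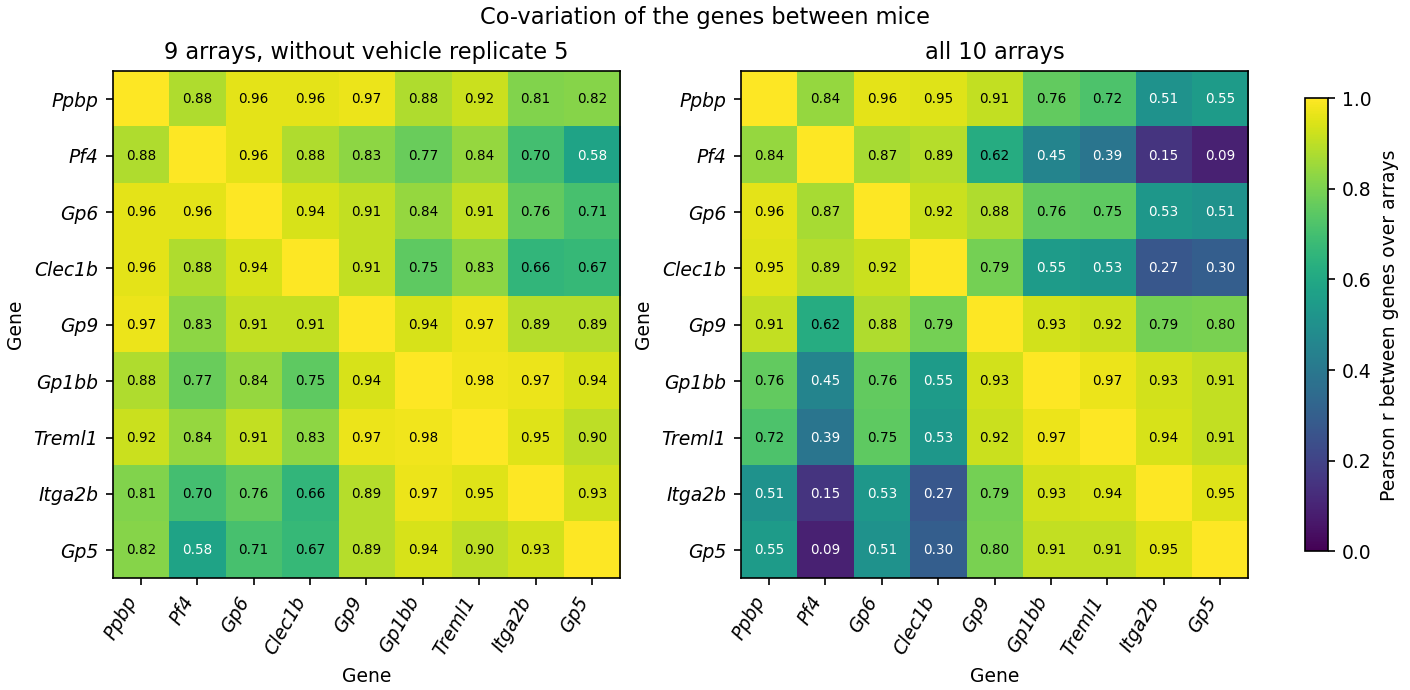
Each cell gives Pearson's r between 2 genes over arrays, on the left for 9 arrays without vehicle replicate 5 and on the right for all 10. On the right the cells of Pf4 and Clec1b with Itga2b and Gp5 lie between 0.09 and 0.30; on the left they lie between 0.58 and 0.70.

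Most other genes of platelets and megakaryocytes also had lower means with maslinic acid. Of 25 further genes of this kind, 21 were measured, 18 had a lower mean with maslinic acid and 3 a higher one (median g = -0.87), against 49.9% of all genes lower. At an unadjusted p under 0.05, 5 were lower, against 4.54% of all genes, and none passed in limma. Their mean z-score lay between -0.67 and -0.04 in maslinic acid mice and between -0.46 and 1.15 in vehicle mice, and correlated with the mean of the members at r = 0.95 (rho = 0.83, n = 10 mice). P2ry1, a platelet receptor for ADP, had g = -1.91 (-3.33 to -0.43) and groups that did not overlap. It had the lowest g of the 21, and is named because it was the most like the mean of the members among 6734 genes. Plek, pleckstrin, a major substrate of protein kinase C in platelets, had g = -1.42 (-2.69 to -0.07), and Rgs18, a regulator of G protein signals in platelets, had -1.24 (-2.48 to 0.06). Other genes of the list stood nearer 0 or above it. Selp, P-selectin, of granule membranes and of endothelium, had g = -0.05 and r = 0.00 with the mean of the members, and Pear1, a platelet surface receptor, had g = 0.70 and r = 0.06; both were chosen after their values were seen. Cd9 had g = -0.55 (-1.68 to 0.62), F13a1, a subunit of clotting factor XIII, had -0.19 (-1.31 to 0.93), and Thbs1, thrombospondin 1, had 0.65 (-0.53 to 1.79). Gng11, a G protein gamma subunit, had g = -0.97 (-2.16 to 0.27).

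Partners and ligands of the members were split between both directions. Of 14 measured genes 8 had a lower and 6 a higher mean with maslinic acid, with a median g of -0.07. Itgb3, the beta-3 chain that pairs with Itga2b and that osteoclasts also carry, had g = 0.18 (-0.95 to 1.30) and r = 0.28 with the mean of the members. Vwf, the ligand of the GPIb complex, made by endothelium and megakaryocytes, had g = -0.18 (-1.30 to 0.95) and r = 0.67. Pdpn, podoplanin, the ligand of CLEC-2 on synovial fibroblasts and lymphatic vessels, had g = 0.07 (-1.05 to 1.19) and r = -0.24. Among the signalling partners, Fcer1g, the Fc receptor gamma chain that carries the GPVI signal, had g = -0.27 (-1.39 to 0.86), Syk had 0.24 (-0.89 to 1.36), and the adaptor Lcp2 had -1.0 (-2.20 to 0.24) with r = 0.72. The matrix ligands Col1a1 and Col3a1 had g = 0.95 (-0.29 to 2.13) and 1.11 (-0.15 to 2.33), and Fn1, fibronectin, had 0.96 (-0.28 to 2.14). Cxcr2, the receptor for chemokines cut from Ppbp, marks neutrophils and had g = -2.71 (-4.39 to -0.96, limma adjusted p = 0.418), with groups that did not overlap.

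Transcription factors of the megakaryocyte line all had a positive r with the mean of the members (8 of 8, median 0.57, n = 10 mice), as did 9 of 9 erythroid markers (median 0.56). Neutrophil markers had a median of 0.55 (9 of 12 positive) and granulocyte progenitor markers one of 0.58 (7 of 8 positive), against 50.0% of all genes positive and a median of 0.00. Of the 8 factors, 5 had a lower and 3 a higher mean with maslinic acid (median g = -0.16). Nfe2, needed for platelet release, was closest (r = 0.92, g = -1.04, -2.24 to 0.21). Fli1, an ETS factor, had r = 0.73 and g = -0.63 (-1.77 to 0.55), and Gata1, shared with red cell precursors and taking 9 distinct values, had r = 0.56 and g = 0.12 (-1.01 to 1.24).

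The 10 genes most like the mean of the members, among 6734 genes with 10 distinct values, had r between 0.933 and 0.969 over 10 arrays. They were P2ry1, Slc6a4, Fbxl2, Slamf1, Tubb1, Tesc, Pik3cg, Tbc1d10c, Ska1 and Cenpu. Slc6a4, the serotonin transporter by which platelets take up serotonin, had r = 0.966, and Tubb1, the tubulin of the platelet's marginal band, had r = 0.954. P2ry1 and Tubb1 also stand in the list of further platelet genes. Pik3cg, a phosphoinositide kinase of white cells and platelets, had r = 0.947, and Ska1 and Cenpu, proteins of the chromosome's attachment to the spindle, had r = 0.934 and 0.933. Without vehicle replicates 3 and 5 the 10 genes had r between 0.87 and 0.99. The list is drawn from the top of many genes, so such values are partly set by the choice; 39 genes (0.579%) had r of at least 0.9. Gp9 was the member most like the mean of the other 8 (r = 0.98, 0 of 6734 genes higher), and Pf4 the least (r = 0.61, 781 genes higher).

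Neutrophil and granulocyte progenitor markers moved with the members, and their part in the result was not tested. Neutrophil markers (12 of 14 measured, 10 lower with maslinic acid, median g = -0.57) had mean z-scores from -0.53 to -0.08 in maslinic acid mice and from -0.37 to 0.86 in vehicle mice, with r = 0.85 to the mean of the members. Their most abundant genes, S100a8 and S100a9, took only 2 distinct values each over the arrays. Granulocyte progenitor markers (8 of 8 measured, 5 lower, median g = -0.71) lay between -0.74 and 0.14 in maslinic acid mice and between -0.70 and 0.94 in vehicle mice, with r = 0.82. Among them Prtn3, proteinase 3, had g = -1.66 (-3.00 to -0.25), and Ctsg, cathepsin G, had -2.28 (-3.81 to -0.68) with groups that did not overlap. Against these, Cd34, a surface protein of progenitors and of endothelium, had g = 1.08 (-0.18 to 2.28) and r = -0.71 with the mean of the members, the only negative r of the 8. Kit and Flt3, receptors of early progenitors, had g = 0.06 and 0.11; Cd34 and Flt3 were chosen after their values were seen. Mpo and Elane stand in both lists. Erythroid markers (9 of 15 measured, 4 lower, median g = 0.10) lay between -1.04 and 1.24 in maslinic acid mice and between -0.88 and 1.44 in vehicle mice, with r = 0.59; Slc4a1, the band 3 anion exchanger, had g = 0.18 (-0.95 to 1.29) and Alas2, the first enzyme of red cell heme synthesis, 0.10 (-1.02 to 1.22). The table holds no detection calls, and no marker was listed at 0.

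With the neutrophil score as a covariate, 5 of the 9 members had a lower value with maslinic acid, and the median g was -0.28. Pf4 had g = -1.54, Gp6 had -1.11, Clec1b -1.0 and Ppbp -0.96, while Gp5 was at 0.87, Itga2b at 0.65, Treml1 at 0.18 and Gp1bb at 0.04. With the granulocyte progenitor score as a covariate, a setting added after the values were seen, 7 of 9 were lower, with Pf4 at -1.64, Gp6 at -1.33, Gp5 at 1.14 and Itga2b at 0.71. None of the 9 passed in either fit. Both scores came from the same arrays and were themselves lower with maslinic acid. Their means were -0.28 against 0.28 in vehicle mice for neutrophils, and -0.29 against 0.29 for progenitors. A fit with either score takes up part of the group difference whatever its source, so it cannot show the part of these cells. In both fits g is in units of the SD left after the covariate, so its size is not on the scale of the main g.

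By Pearson's r, lists of other tissue cells were less alike or ran the other way. Monocyte and macrophage markers (9 measured, 5 lower with maslinic acid, median g = -0.02) had r = 0.24 with the mean of the members. B cell markers (7 measured, 4 lower, median g = -0.28) had r = 0.54, and mast cell markers (7 measured, 4 lower, median g = -0.02) had r = 0.40. By rho, B cell markers (0.70) were close to neutrophil markers (0.73) and above erythroid markers (0.47). Synovial fibroblast markers (8 measured, 8 higher, median g = 0.45) had r = -0.39, and endothelial markers (8 measured, 7 higher, median g = 0.26) had r = -0.35. Without vehicle replicates 3 and 5 these last were 0.06 for fibroblasts and 0.17 for endothelium. Muscle markers (9 measured, 9 higher, median g = 0.32) had r = -0.21. No gene of these lists passed in limma.

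**Figure D4:**
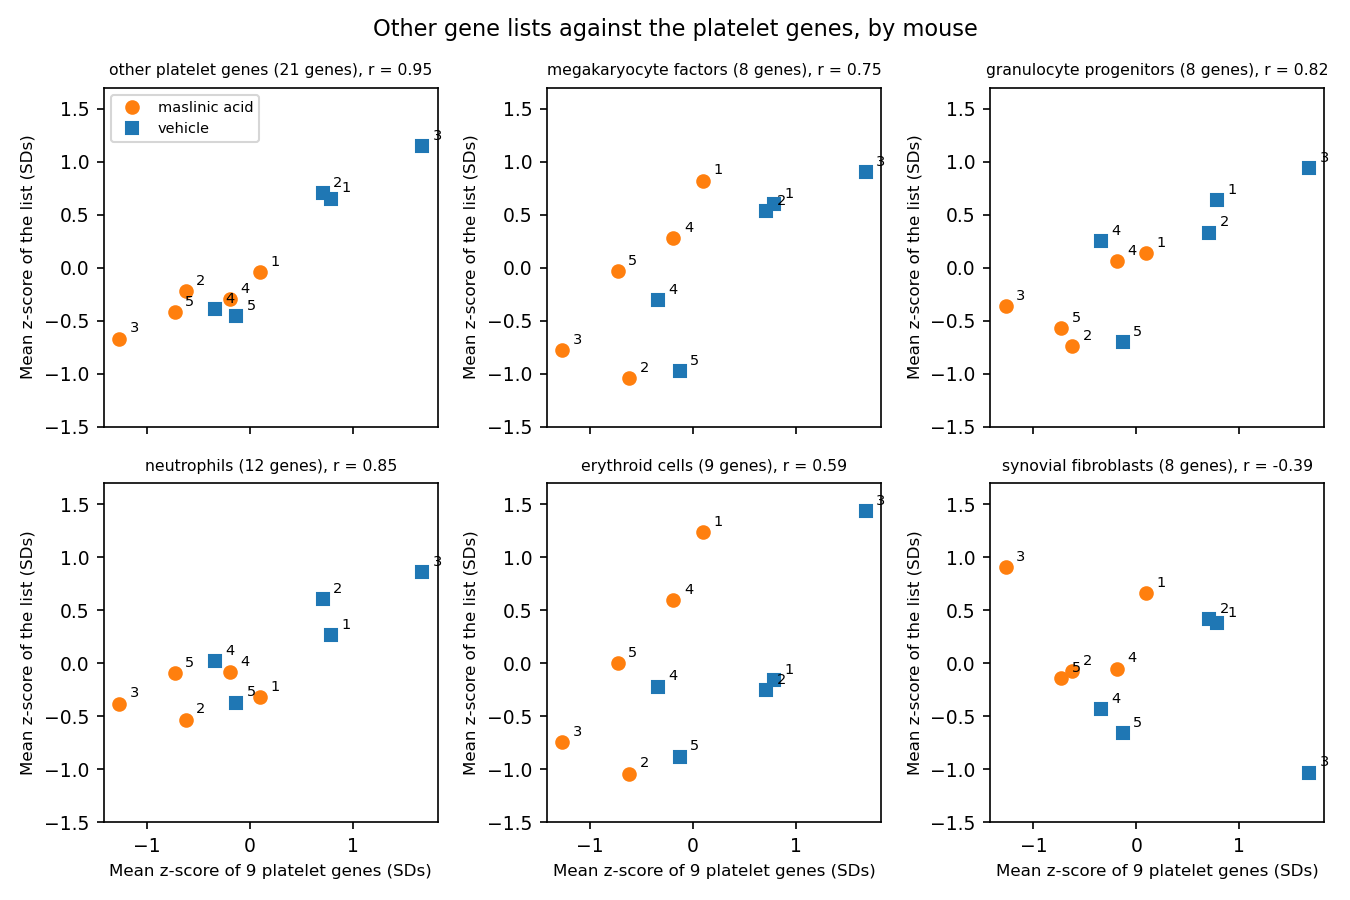
Each point is 1 mouse, numbered by replicate, with the mean z-score of the 9 platelet genes on the horizontal axis and that of another gene list on the vertical axis, both in SDs. The further platelet genes lie close to a line with the members (r = 0.95), and vehicle replicate 3 stands at the right edge of every panel, at 1.68.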

How the data were processed

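Biotin-labelled cRNA from synovium was hybridised to Affymetrix mouse genome arrays, 1 per mouse. The deposited values are named a score here, because the authors' scale could not be settled: R 3.2.1 was used per the submitters' processing notes, and the labels state no method of background correction, of normalization or of probe set summary. Groups and replicate numbers come from the titles; no batch is given, and no column was left unused (0 unmapped). The number of arrays limits the precision.

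Of 39993 probe sets, the platform annotation named 1 gene for 34202, several for 931 and none for 4860. The Entrez identifier of 34028 was found in RefSeq, which changed 0 symbols. The probe set with the highest mean stood for each of 18128 genes. limma 3.58.1 under R 4.3.3 tested every probe set (functions lmFit, then eBayes), without covariate or filter, two-sided, with Benjamini-Hochberg adjustment over all probe sets and a threshold of 0.05. Hedges' g has a noncentral t interval (95%). With a covariate or the replicate block, g is in units of the SD left after that fit. Correlations used 100000 permutations and carry p-values for pairs of members alone. The fit was tested on simulated arrays (39993 probe sets, 50 changed per size). It found 4% of shifts of 2 SD, 62% of those of 4 SD, 98% of those of 6 SD and 100% of those of 8 SD, and made 4 false calls. Alternatives changed the normalization, filter, eBayes options, test, probe set choice, covariates and arrays used. Python 3.11.15, pandas 2.3.3, numpy 2.4.6, scipy 1.17.1 and matplotlib 3.10.9 were used.

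The members and lists were chosen with earlier results of these data known. Named genes were all members, the 10 most alike genes, and from the lists the most abundant ones and some fixed by name.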

Additional observations from a re-analysis of the deposited data

How the results depend on the processing

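All 9 members kept a lower mean with maslinic acid under quantile normalization, array centring, array weights, each array left out and vehicle replicates 3 and 5 left out. The filters, eBayes options, Wilcoxon test, probe set choice and replicate block could not turn a member's sign. The neutrophil covariate left 5 of 9, with Itga2b at 0.65, Gp1bb at 0.04, Gp5 at 0.87 and Treml1 at 0.18. The granulocyte progenitor covariate turned Itga2b (0.71) and Gp5 (1.14). The cause was not tested. Probe sets passing in limma numbered 0 in the main setting (3617 at an unadjusted p under 0.05), 8 after quantile normalization and 0 to 1 with single arrays left out, the 1 without maslinic acid replicate 1; no member passed in any. The exact Wilcoxon test passed 0 (2741 unadjusted). The median r between members was 0.79. It was 0.67 over deviations from group means, 0.40 after quantile normalization, 0.87 without vehicle replicates 3 and 5, and 0.70 to 0.89 with single arrays left out, lowest without vehicle replicate 3 and highest without vehicle replicate 5. The median g of the members was -0.77 after quantile normalization, and ran from -1.53 (without vehicle replicate 4) to -1.01 with single arrays left out. With the replicate block it was -0.89, and 1 of 9 members had an unadjusted p under 0.05. In that setting 3028 of 39993 probe sets had such a p, in either direction, and 0 passed after adjustment. Deviations of same-numbered mice correlated at -0.39 to 0.35, which cannot decide whether the numbers pair the mice. Of the 5 maslinic acid mice, 2 correlated best with their own number.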

Other observations

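A probe set that names both Septin5 and Gp1bb, which are neighbours, was left out of the counts. Its values correlated with those of the Gp1bb probe set at r = 0.30 over the 10 arrays.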
